A study of Homo sapiens with 2 samples.

Results

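In single-cell RNA data of A549, a long-used line grown from a human lung adenocarcinoma, 6 genes were followed: the metallothioneins MT2A, MT1X, MT1F, MT1A and MT1E and the zinc exporter SLC30A1. They were chosen by symbol from the 36601 genes in the files, with the difference of MT1X and MT2A between the libraries already known, so the differences between the libraries are given as descriptions. The Squashed library came from cells that had been confined under polydimethylsiloxane micropillars, and the Control library from unconfined cells in 2D culture. Each held living cells that had recovered for 48 h and were then sorted as negative for ChReporter, a state the labels put at roughly 1 of 500 cells. All cells of both groups are therefore negative by selection, and the sources used here do not name the chromosome it marks. There was 1 library per group, with the same batch label. No comparison between them has a replicate check, no test was made, and the treatment and the library cannot be told apart.

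Metallothioneins are very small, cysteine-rich proteins that bind zinc and copper in the cytosol and take up toxic metals such as cadmium. Their genes are switched on by the factor MTF1, which senses free zinc and binds short metal response elements in their promoters. Glucocorticoids and oxidative stress also induce them. SLC30A1 (ZnT1) pumps zinc out across the plasma membrane and is another classic MTF1 target. The lung epithelium uses the same system to buffer zinc and cadmium.

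After filtering, 1930 of 3132 Squashed barcodes and 1906 of 2574 Control barcodes remained, with 23328323 and 27482392 unique molecular identifiers (UMIs, 1 per captured RNA molecule). Squashed cells were shallower: their median was 9331 UMIs, against 12459 in Control cells, and 1790 genes were detected in the median Squashed cell, against 2598 in the median Control cell. The libraries shared 4 barcodes. Levels are in CPM, a gene's UMIs scaled by the total of the library. Of 8 epithelial markers, which summed to 2147 CPM in Squashed and 2915 CPM in Control cells, 4 reached 20 CPM in either library: the keratins KRT8, KRT18 and KRT7 and the junction protein JUP. The defining surface protein EPCAM was at 0 CPM in Squashed and 0.182 CPM in Control cells, and E-cadherin (CDH1) at 4.12 and 7.86 CPM. Fibroblast markers summed to 9.30 and 9.32 CPM. Immune markers summed to 23.2 CPM in Squashed and 15.5 CPM in Control cells, with 6 of 9 at 0, and endothelial markers to 10.2 and 44.8 CPM, with 3 of 7 at 0. CD68 held most of the immune sum (21.8 and 13.4 CPM) and EGFL7 most of the endothelial sum (10.2 and 44.8 CPM). The part of other cells in the results was not tested.

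The 5 metallothionein genes lie together on chromosome 16, on the plus strand and within 75613 bases in GRCh38 (GENCODE 44). MT2A (ENSG00000125148) spans 56608584 to 56609497, MT1E (ENSG00000169715) 56625475 to 56627112, MT1A (ENSG00000205362) 56638666 to 56640087, MT1F (ENSG00000198417) 56657731 to 56660698 and MT1X (ENSG00000187193) 56682470 to 56684196. SLC30A1 (ENSG00000170385) lies on chromosome 1 from 211571568 to 211579161 on the minus strand. The 250 bases before the gene start are shown for the 3 members that RefSeq's promoter table (GRCh38.p14) holds, since MTF1 is known to act on all of them while only the metallothioneins among them stood higher in the Squashed library. Each is written 5′ to 3′ on the gene's strand. Capitals mark the core of the metal response element, searched as TGCACNC or TGCGCNC on both strands; on the opposite strand it reads GNGTGCA or GNGCGCA. No marked cores overlap.

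MT2A, chr16:56608334-56608583, plus strand: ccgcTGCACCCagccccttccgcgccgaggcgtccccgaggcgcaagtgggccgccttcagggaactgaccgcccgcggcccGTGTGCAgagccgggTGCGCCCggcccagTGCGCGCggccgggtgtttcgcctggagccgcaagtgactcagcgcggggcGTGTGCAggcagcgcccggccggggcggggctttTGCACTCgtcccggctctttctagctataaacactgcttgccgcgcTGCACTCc
MT1X, chr16:56682220-56682469, plus strand: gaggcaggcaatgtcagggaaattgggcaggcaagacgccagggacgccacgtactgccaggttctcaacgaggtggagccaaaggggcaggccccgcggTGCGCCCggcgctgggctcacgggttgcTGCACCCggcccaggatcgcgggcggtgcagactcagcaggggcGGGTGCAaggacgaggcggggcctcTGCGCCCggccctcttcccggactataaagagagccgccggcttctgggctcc
SLC30A1, chr1:211579162-211579411, minus strand: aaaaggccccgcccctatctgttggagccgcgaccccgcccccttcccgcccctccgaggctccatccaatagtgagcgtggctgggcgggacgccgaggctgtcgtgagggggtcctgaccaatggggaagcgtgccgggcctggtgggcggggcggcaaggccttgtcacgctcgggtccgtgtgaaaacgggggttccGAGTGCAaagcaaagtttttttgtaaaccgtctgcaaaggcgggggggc

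The MT2A window holds 7 cores, the MT1X window 4 and the SLC30A1 window 1. Of the 35116 promoters in the table, 0.0313% hold at least 7 cores in the same 250 bases, 0.370% at least 4 and 24.8% at least 1. These are matches of letters, not shown sites. MT1F, MT1A and MT1E are named only.

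All 4 metallothionein genes with reads stood higher in the Squashed than in the Control library, whereas the zinc exporter stood slightly lower. MT2A, the main metallothionein of most human cells, had 2535 CPM in Squashed and 958 CPM in Control cells (UMIs summed over cells; log2 ratio of Squashed over Control 1.40, 95% interval 1.38 to 1.42). All intervals cover counting error only. MT1X, a member of the MT1 subfamily, had 267 CPM in Squashed and 84.8 CPM in Control cells (1.65, 1.59 to 1.72). The MT1X ratio was 1.08 without the 1% highest cells of each library and 2.53 with a stricter cell filter. MT1A had 36.9 CPM in Squashed and 11.5 CPM in Control cells (1.68, 1.5 to 1.88), and MT1F had 17.0 and 7.24 CPM (1.23, 0.98 to 1.49). Together the metallothioneins rested on 66630 UMIs in Squashed and 29185 UMIs in Control cells, or 2856 and 1062 CPM (1.43, 1.41 to 1.45).

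SLC30A1 rested on few molecules, 140 UMIs in Squashed and 216 UMIs in Control cells, or 6.0 and 7.86 CPM (-0.39, -0.71 to -0.08). Its direction depended on the cells kept: in the 687 Squashed and 1003 Control cells that passed a stricter filter (5000 UMIs and 1500 genes or more, and no more than 10% mitochondrial UMIs), the log2 ratio was 0.21. MT1E had 0 UMIs in the kept cells of both libraries, where a floor of 3 counts per library is 0.129 CPM in Squashed and 0.109 CPM in Control cells. A single MT1E UMI was found among the removed Squashed barcodes. Thus 4 of the 5 metallothionein members were detected, and MT1E was not detectable at this depth.

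Of the 6 members, MT2A, MT1X and MT1A reached 20 CPM in either library, MT1A through the Squashed library alone. These 3 were at least 2-fold higher in Squashed cells, as were 1.09% of the 4307 genes at that level, and 0 were that much lower, against 5.11% of all. Since the members were chosen with this contrast known, nothing is read from that count. The median log2 ratio of the 4307 genes was -0.14.

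The metallothionein messages are short, and short messages ran higher in the Squashed library as a class. The canonical transcripts of MT1A, MT2A, MT1X and MT1F have 396, 401, 404 and 425 bases. Of 16 other measured genes with transcripts over 300 and up to 400 bases, 9 were at least 2-fold higher in Squashed cells. Their median log2 ratio was 1.08 (quartiles 0.87 and 1.76). The 3 others of up to 300 bases had a median of 1.25. Of 38 others over 400 and up to 500 bases, 1 was that much higher, with a median of 0.41 (quartiles 0.17 and 0.53). MT2A and MT1X lie only just past the cut at 400 bases. For the 4243 genes with longer transcripts the median was -0.14. The part of transcript length in the metallothionein ratios was not tested. SLC30A1, at 5893 bases, falls in the long class.

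Near-identical copies can split reads among these genes. Of the 50-base windows in the MT1X transcript, 51.0% also occur in a transcript of another gene, among them MT2A, MT1A, MT1F and pseudogenes. The share was 11.1% for MT2A, 10.3% for MT1E, 6.12% for MT1F, 5.76% for MT1A and 0% for SLC30A1. In the last 150 windows, nearest the 3′ end where this kit counts, 0 were shared for MT1X, MT1F and MT1A, 3 for MT2A and 5 for MT1E. The values of single metallothionein genes are uncertain as far as reads from the shared parts were discarded or split.

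Other metallothionein genes were nearly silent except MT1B, which was singled out after its values had been seen. MT1B had 129 UMIs in Squashed and 1 UMI in Control cells (5.53 and 0.0364 CPM). The Squashed UMIs lay in 27 of 1930 cells (1.40%, 0.92 to 2.03), against 1 of 1906 Control cells. A cell of the G1 class held 40 of them and another held 36, which is 58.9% of the Squashed total, and 53 UMIs were spread over the rest. In the first of these cells MT2A had 105 UMIs and MT1X 1 UMI, and in the second MT2A had 31 UMIs, MT1X 1 UMI and MT1A 16 UMIs. Both of these cells were thus high in MT1B but not in MT1X, and the other cells with MT1B are not described here. MT1G had 1 and 0 UMIs in Squashed and Control cells, MT3, the brain form, had 5 and 1, and MT1H, MT1M, MT1HL1 and MT4 had 0 in both.

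MT2A was higher in Squashed cells at every percentile of cells examined, and a few Squashed cells were far higher in MT1X than any Control cell. Per cell, MT2A had a median of 1723 CPM in Squashed and 718 CPM in Control cells (log2 ratio of medians 1.26). The ratio was not even over cells. On the log2 scale it was 2.02 at the 5th percentile, 1.36 at the 25th and 1.29 at the 75th. It was 1.42 at the 95th, 1.64 at the 99th and 1.93 for the highest cells. The Control 5th percentile of 68.7 CPM was near the counting floor, as 96.0% of Control cells had an MT2A UMI. For MT1X the log2 ratio was 1.61 at the median (90.7 CPM in Squashed and 29.7 CPM in Control cells). This Control median lay at the edge of detection, since 50.9% of Control cells had an MT1X UMI, against 60.6% of Squashed cells. The ratio at the median is therefore not read further. Above it the MT1X ratio was 0.94 at the 75th percentile, 1.11 at the 95th, 2.17 at the 99th and 4.47 for the highest cells. The highest MT1X cell stood at 46620 CPM among Squashed and at 2103 CPM among Control cells. For the summed metallothioneins, 82.3% of Squashed cells (80.5 to 84.0) lay above the Control median of 801 CPM, 25.4% (23.5 to 27.4) above the Control 95th percentile of 3397 CPM, and 25 cells above the highest Control cell at 18294 CPM.

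**Figure D1:**
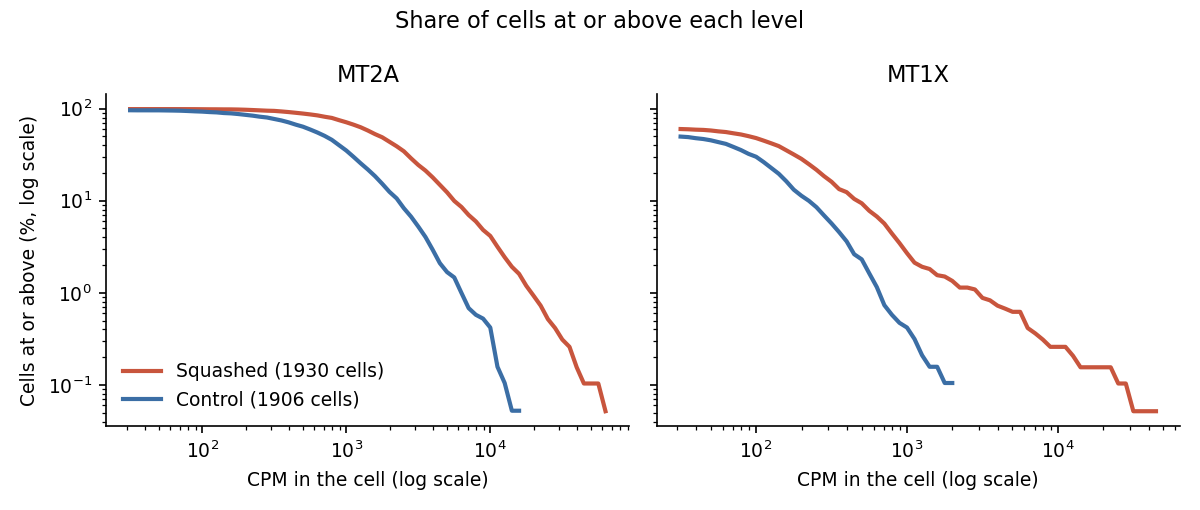
Share of kept cells (vertical axis, percent, log scale) whose MT2A or MT1X level is at or above the CPM on the horizontal axis (log scale), in 1930 Squashed and 1906 Control cells. The Squashed curve lies to the right for MT2A, by a log2 ratio of 1.26 at the median and 2.02 at the 5th percentile. At the 5th percentile Control cells are near the counting floor. The MT1X curves end at 46620 CPM for Squashed and 2103 CPM for Control cells.

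To compare spread at equal depth, cells were thinned to 2000 UMIs, which 1782 Squashed and 1825 Control cells allowed. MT2A was then detected in 89.3% of the Squashed (87.8 to 90.7) and 69.4% of the Control cells (67.3 to 71.5), and with at least 5 UMIs in 38.5% and 12.1%. Without thinning, 98.8% and 96.0% of cells had an MT2A UMI. MT1X was found in 24.1% (22.1 to 26.1) of the thinned Squashed and 13.5% (11.9 to 15.1) of the thinned Control cells, or 60.6% and 50.9% without thinning. MT1A was found in 7.01% and 2.85% of thinned cells, MT1F in 3.65% and 1.48%, and SLC30A1 in 1.12% (0.687 to 1.73) of the Squashed and 1.42% (0.933 to 2.08) of Control cells. No cell type that should lack these genes is present in the data, so the share that RNA free in the droplets gives could not be measured.

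The Fano factor, the variance of thinned counts over their mean, is near 1 for counting noise alone and, for the same relative spread, grows with the mean. It was 13.7 in Squashed and 4.08 in Control cells for MT2A, and 19.4 and 1.19 for MT1X. The mean thinned counts differed as well, at 5.68 and 2.06 UMIs for MT2A and 0.553 and 0.157 UMIs for MT1X. The coefficient of variation (SD over mean) was close for MT2A, at 1.55 in Squashed and 1.41 in Control cells, and apart for MT1X, at 5.92 and 2.75. Among the 4307 measured genes, MT1X ranked 3 by this factor in the Squashed library and 434 in the Control library. MT2A ranked 4 and 19, and MT1A 73 and 3221. For MT1A the coefficient of variation went the other way, at 4.86 in Squashed and 5.90 in Control cells, with means of 0.0875 and 0.0290 UMIs. The medians over these genes were 1.04 in both libraries. The Fano factor of SLC30A1 was 1.08 in Squashed and 0.986 in Control cells, near that of counting alone. The 1% of cells with the most MT1X UMIs held 39.4% of all MT1X UMIs in the Squashed and 13.9% in the Control library, while the corresponding cells for MT2A held 13.7% and 9.41%.

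Pooled over the highest Squashed cells, there was more MT1X beside MT2A than in the rest. In the 20 Squashed cells with the highest summed level (1% of cells) there were 34.4 MT1X UMIs per 100 MT2A UMIs, against 7.53 in the other Squashed cells. In the 20 highest Control cells there were 8.06, against 8.89 in the other Control cells. The cells were picked by a sum that includes MT1X, and their UMIs were pooled, so a few cells can carry the ratio. The highest Squashed cell had 553 MT2A, 442 MT1X and 13 MT1A UMIs out of 9481. The next had 688 MT2A and 264 MT1X UMIs out of 10599, and the third 664 MT2A, 521 MT1X and 52 MT1A UMIs out of 17023. The fifth had 1071 MT2A and 160 MT1X UMIs out of 27612. The highest Control cell had 224 MT2A and 15 MT1X UMIs out of 13119. Of the 20 Squashed cells 0 were called doublets, and their median depth was 10924 UMIs against 9320 UMIs in the rest. Of the 20 Control cells 1 was called a doublet, with a median of 7568 UMIs against 12493 UMIs.

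The top cells of the genes overlapped in part. Of the 20 cells with the most MT2A UMIs and the 20 with the most MT1X UMIs, 14 were the same in the Squashed library (70% of each) and 7 in the Control library (35% of each). For MT1X and MT1A the shared cells numbered 4 and 0. SLC30A1 had 6 UMIs in a Squashed cell that also held 453 MT2A and 188 MT1X UMIs, and at most 3 in every other kept cell of either library.

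Cell-cycle stages were called from genes of DNA replication and of mitosis in the thinned cells, a G1 call meaning that neither score was above 0. Of 1782 Squashed cells 57.4% were called G1, 5.27% S and 37.4% G2/M, and of 1825 Control cells 45.3%, 4.60% and 50.1%. The classes are ranges of a score: 154 G1, 61 S and 120 G2/M cells of the Squashed library and 138, 48 and 105 of the Control library lay within 0.05 of another class, so most S calls were near a boundary. Free RNA enters these calls and was not measured. As a check on a gene outside the lists, the nuclear RNA NEAT1 stood at 1510, 598 and 250 CPM in Squashed and 3144, 716 and 188 CPM in Control cells of G1, S and G2/M.

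In the Squashed library MT2A and MT1X were higher in G2/M than in G1 cells, and in the Control library they were lower. MT2A had 2085 CPM in G1, 2674 CPM in S and 3081 CPM in G2/M cells of the Squashed library, against 973, 1364 and 888 CPM in those of the Control library. MT1X had 181, 211 and 385 CPM in Squashed cells of these stages and 95.6, 117 and 70.1 CPM in Control cells. The log2 ratio of G2/M over G1 was 0.56 (0.54 to 0.59) in Squashed and -0.13 (-0.17 to -0.10) in Control cells for MT2A. For MT1X it was 1.09 (1.01 to 1.16) and -0.45 (-0.57 to -0.32). Without the 1% highest cells, it was 0.57 for MT1X in Squashed and -0.35 in Control cells; of the 20 Squashed cells left out, 13 were called G2/M and 6 G1. The difference between the libraries was not tested, as each had 1 library. For the summed metallothioneins, stages called on all UMIs gave a Control ratio of 0.12, above 0, and a Squashed ratio of 0.93. With the stricter cell filter the ratio of the sum was 0.24 in Squashed and -0.42 in Control cells. Median genes per cell were 1486 in G1 and 2582.5 in G2/M of the Squashed library, against 2322 and 2743 in the Control library. The part of this difference in the stage ratios was not tested.

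The smaller members and the exporter had other orders. MT1F was lower in G2/M than in G1 cells of both libraries, with 13.6 against 19.8 CPM in Squashed and 4.80 against 9.34 CPM in Control cells (log2 ratios of G2/M over G1 -0.54, -0.86 to -0.23, and -0.96, -1.43 to -0.51). MT1A was level, with 37.0 against 35.6 CPM in Squashed (0.05, -0.15 to 0.26) and 11.2 against 11.5 CPM in Control cells (-0.04, -0.38 to 0.30). SLC30A1 had 5.22 against 6.63 CPM in Squashed (-0.34, -0.88 to 0.18) and 6.11 against 9.88 CPM in Control cells (-0.69, -1.12 to -0.28). In S cells SLC30A1 rested on 10 UMIs in each library, which allows no order.

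**Figure D2:**
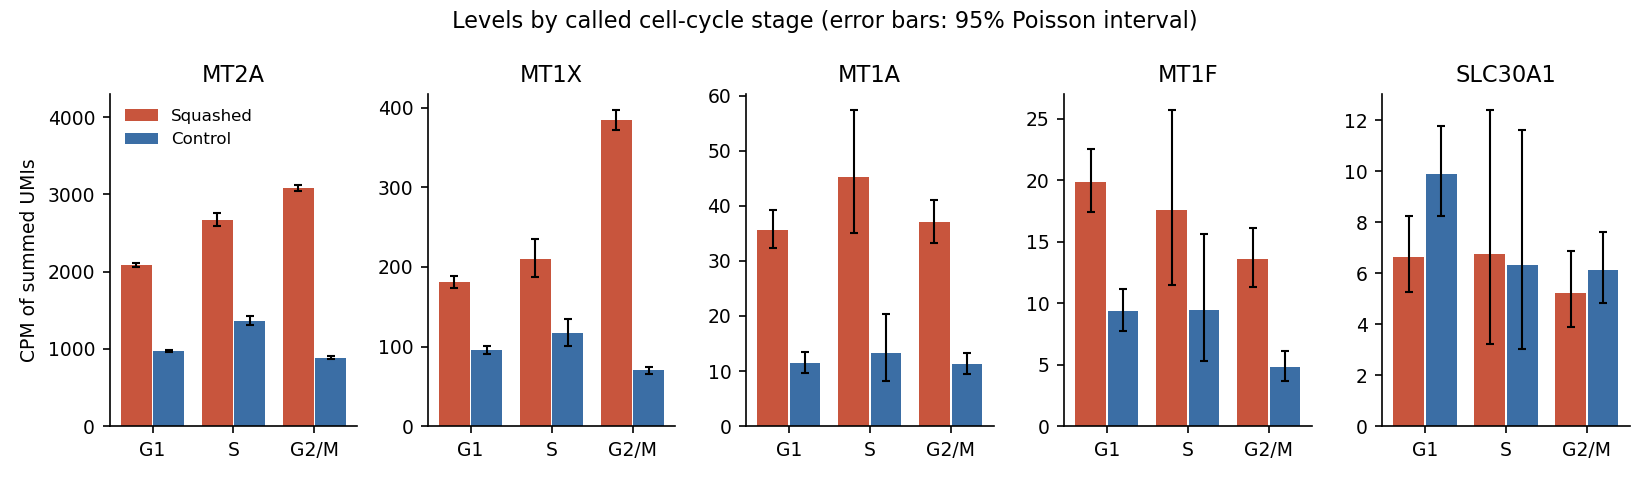
CPM of summed UMIs (vertical axis from 0) of 5 members in cells called G1, S and G2/M, Squashed left of Control, with exact Poisson intervals at 95% that cover counting error only. MT1X in Squashed cells stands at 385 CPM in G2/M and 181 CPM in G1, and in Control cells at 70.1 and 95.6 CPM.

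Within each stage MT2A, MT1X and MT1A were higher in Squashed than in Control cells, and for MT2A and MT1X the gap was widest in G2/M; whether stages differ in it was not tested. The log2 ratio of the metallothionein sum was 1.09 (1.06 to 1.12) in G1, 0.97 (0.90 to 1.04) in S and 1.85 (1.82 to 1.88) in G2/M. MT1X ranged from 0.85 (0.58 to 1.12) in S to 2.46 (2.35 to 2.56) in G2/M, where it was 1.57 without the 1% highest cells. In S, with 312 MT1X UMIs in Squashed and 185 in Control cells, it was 2.00 with thinned cells and 1.86 with the stricter cell filter. MT1A was near constant at 1.63 in G1, 1.75 in S and 1.72 in G2/M. MT1F was higher in Squashed cells of G1 (1.08) and G2/M (1.5), with both intervals above 0. In S it was at 0.87 (-0.08 to 1.91), and at -0.16 with thinned cells, which gives no direction. Among MT2A, MT1X and MT1A, 2 were at least 2-fold higher in G1 (1.39% of all measured genes), 1 in S (1.81%) and 3 in G2/M (1.27%). In every stage 0 of the 3 were 2-fold lower, against 7.71% of all measured genes in G1, 5.83% in S and 4.13% in G2/M. In each stage MT1A reached 20 CPM through the Squashed library alone. The members were chosen with the contrast known, so nothing is read from these counts. SLC30A1 was at -0.57 (-1.0 to -0.16) in G1, at -0.22 (-0.77 to 0.30) in G2/M and at 0.10 in S, and the G1 value was 0.33 with the stricter cell filter.

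Medians over cells also put G2/M above G1 in the Squashed and below it in the Control library, with S and G2/M close together in the Squashed library. The median of the summed metallothioneins was 1480 CPM in G1, 2362 CPM in S and 2340 CPM in G2/M cells of the Squashed library, and 805, 1275 and 753 CPM in those of the Control library. At 2000 UMIs, at least 5 MT2A UMIs were found in 32.2% of G1 (29.3 to 35.2), 47.9% of S (37.5 to 58.4) and 46.8% of G2/M cells (43.0 to 50.7) of the Squashed library. In the Control library the shares were 12% (9.84 to 14.4), 22.6% (14.2 to 33.0) and 11.2% (9.19 to 13.4). The Fano factor of MT1X was 7.26, 1.43 and 28.5 in Squashed and 1.29, 1.13 and 1.06 in Control cells of G1, S and G2/M. The very high MT1X cells of the Squashed library thus lay in G2/M and, to a smaller extent, in G1.

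Cells with more MT2A also held more MT1X in both libraries, while SLC30A1 did not follow. Cells were put into quintiles by their thinned MT2A count. The lowest quintile held 0 to 1 MT2A UMIs in Squashed and 0 in Control cells, and the highest 8 to 137 and 3 to 47. Cells with equal counts were split between neighbouring quintiles without regard to expression, so the steps between quintiles are not equal in the libraries. From the lowest to the highest quintile, MT1X stood at 83.1, 108, 134, 194 and 925 CPM in Squashed cells and at 47.0, 55.5, 67.4, 90.6 and 175 CPM in Control cells. The 20 Squashed cells with the highest summed level fell in the top quintile, and without them MT1X stood there at 383 CPM (364 to 403). In the top Control quintile MT1X stood at 157 CPM without the highest cells. MT1A stood at 18.3 CPM in the lowest and 82.8 CPM in the highest quintile of Squashed cells. In those of Control cells it stood at 9.99 CPM (7.57 to 12.9) and 15.0 CPM (11.8 to 18.8), with overlapping intervals. Without the highest cells it stood at 58.9 CPM in the top quintile of Squashed cells and at 13.8 CPM in that of Control cells. MT1F stood at 11.2 and 34.4 CPM in Squashed and at 6.13 and 8.72 CPM in Control cells, where the intervals of the outer quintiles overlapped. SLC30A1 stood at 5.58 CPM (3.71 to 8.07) in the lowest and 8.18 CPM (5.63 to 11.5) in the highest quintile of Squashed cells, and at 8.06 and 6.49 CPM in those of Control cells, with overlapping intervals. MTF1, the zinc-sensing factor, stood at 3.59 and 4.96 CPM in Squashed and at 4.03 and 5.88 CPM in Control cells. G2/M calls made up 26.6% of the lowest and 49.2% of the highest quintile in the Squashed library, against 54.0% and 47.1% in the Control library.

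**Figure D3:**
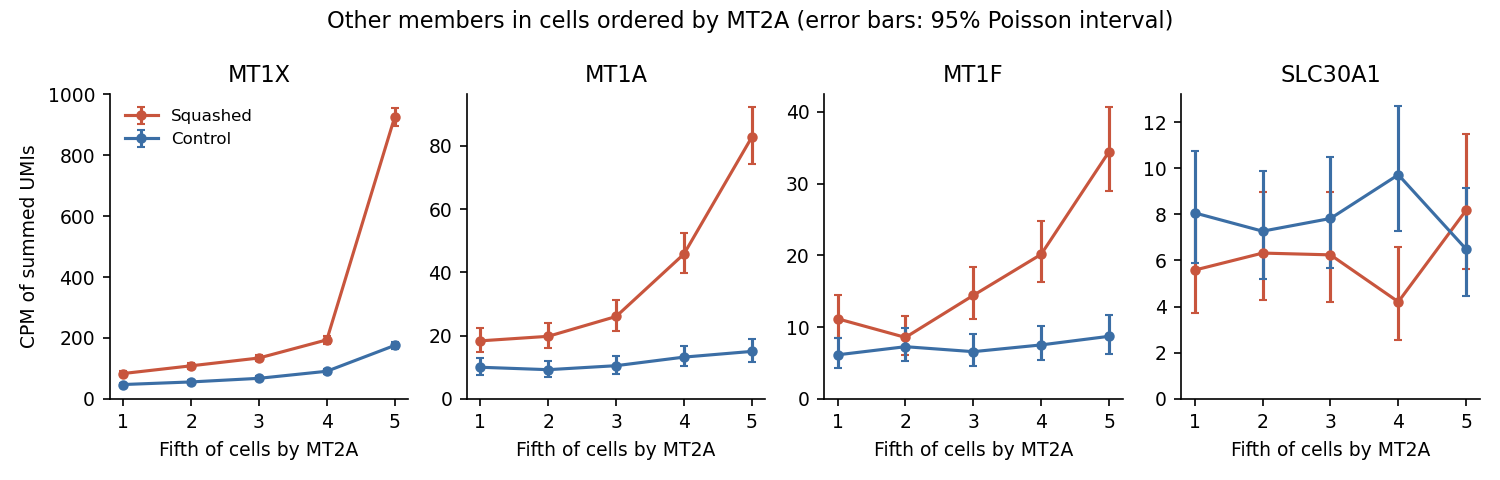
CPM of summed UMIs (vertical axis from 0) of MT1X, MT1A, MT1F and SLC30A1 in quintiles of cells ordered by thinned MT2A counts (horizontal axis, 1 lowest), in 1782 Squashed and 1825 Control cells, with Poisson intervals at 95%. MT1X climbs to 925 CPM in Squashed and 175 CPM in Control cells, or to 383 and 157 CPM without the 1% highest cells, and SLC30A1 shows no order.

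As correlations over thinned cells of the same library, which share depth and any free RNA, the links were modest. Spearman's rho of MT2A and MT1X was 0.27 over 1782 Squashed and 0.18 over 1825 Control cells, and 0.36 and 0.28 at 5000 UMIs per cell. By stage it was 0.21 in G1, 0.17 in S and 0.34 in G2/M of the Squashed library, and 0.23, 0.12 and 0.15 in those of the Control library. MT2A and MT1A reached 0.12 in Squashed and 0.07 in Control cells, and MT2A and MT1F 0.09 and 0.02. The metallothionein sum and SLC30A1 gave -0.01 and 0.01. With so few UMIs of MT1A, MT1F and SLC30A1 per cell, weak values carry no finding.

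Among 1801 other genes that reached 50 CPM in both libraries, those most like the metallothionein sum over cells, ranked by the lower of the libraries' rho, were LGALS1 (0.23 in Squashed and 0.20 in Control cells), which encodes galectin-1, and TMSB10 (0.30 and 0.20), an actin-binding thymosin. KRT81 (0.22 and 0.14), a hair keratin, and ACTB (0.14 and 0.11), cytoplasmic actin, followed with ELOB and CIB1, both at 0.13 or less. Between the libraries these genes differed in direction: LGALS1 had 1699 CPM in Squashed and 1178 CPM in Control cells (log2 ratio 0.53), while KRT81 had 2760 and 7911 CPM (-1.52). The genes most like SLC30A1 were the nuclear RNAs NEAT1 and MALAT1, followed by SNHG14, DUXAP8, EFTUD2 and VEZT, all between 0.07 and 0.13 in either library.

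The rest of the zinc system showed no shift of that size. MTF1 had 5.02 CPM in Squashed and 5.28 CPM in Control cells (log2 ratio -0.07, -0.44 to 0.29). The 10 genes of the list of MTF1 and other exporters summed to 47.5 and 52.6 CPM, and 0 of them reached 20 CPM. SLC30A5 and SLC30A6, which load zinc into the secretory pathway, were at -0.62 (-0.94 to -0.31) and -0.29 (-0.54 to -0.04), SLC30A7 of the Golgi at -0.13 and SLC30A9 of mitochondria at 0.10. Of 14 importers, which bring zinc into the cytosol, 5 were measured, 0 were 2-fold higher and 0 were 2-fold lower, with a median of -0.11 beside -0.14 for all measured genes. SLC39A10 had 56.1 CPM in Squashed and 37.0 CPM in Control cells (0.60, 0.48 to 0.72), SLC39A4 had 20.5 and 33.6 CPM (-0.71, -0.88 to -0.55), and SLC39A6 had 26.0 and 36.4 CPM (-0.49, -0.63 to -0.34). SLC39A7, which releases zinc from the endoplasmic reticulum, was at -0.11 and SLC39A14 at -0.58.

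Copper genes were split. Of 12 genes 8 were measured, with a median of 0.00, and 1 was at least 2-fold lower and 0 as much higher. With scaling by trimmed mean of M-values (TMM), which moved every log2 ratio up by 0.15 and the median of all measured genes to 0.02, 0 were lower and 1 was higher. Ratios less than 0.15 below 0, such as the medians of the zinc importers and of the stress lists, turn positive under that scaling. The copper chaperone ATOX1 had 486 CPM in Squashed and 263 CPM in Control cells (0.89, 0.84 to 0.93), and COX17, which carries copper to cytochrome c oxidase, had 325 and 210 CPM (0.63, 0.58 to 0.68). SCO1, which delivers copper to the same enzyme, had 16.2 and 33.6 CPM (-1.05, -1.23 to -0.88), and COX11 of that assembly path had 66.5 and 95.6 CPM (-0.52, -0.61 to -0.43). The importer SLC31A1 had 22.5 CPM in either library, and the copper and zinc enzyme SOD1 had 643 CPM in Squashed and 641 CPM in Control cells.

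**Figure D4:**
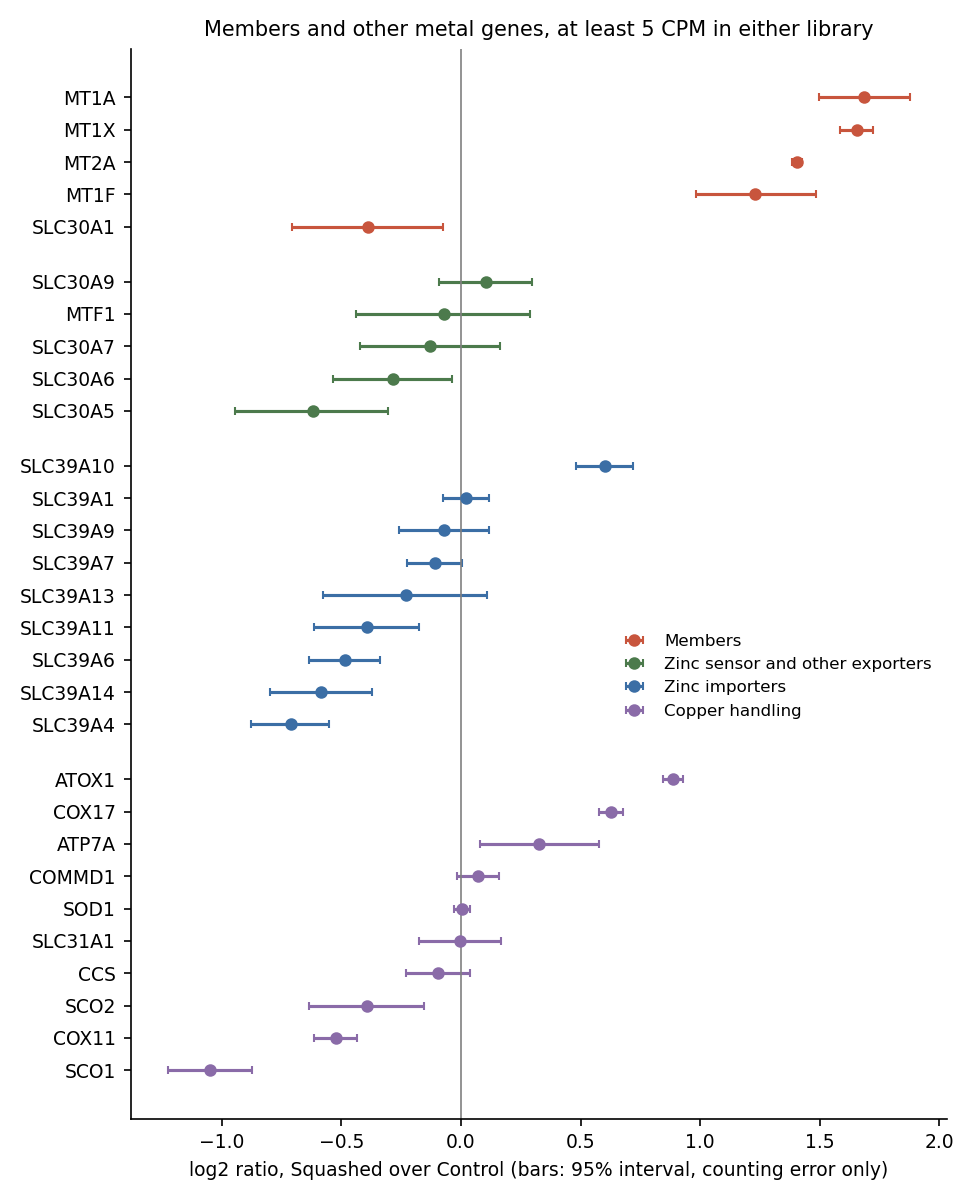
Log2 ratio of Squashed over Control (horizontal axis) for 5 members and for other zinc and copper genes that reached 5 CPM in a library, MT1B left out; error bars are exact intervals at 95% for counting error. The 4 metallothioneins lie between 1.23 and 1.68, and the other genes between -1.05 and 0.89.

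Lists of genes that answer to other signals, some of which can induce metallothioneins, were read beside the median of -0.14 for all measured genes; no list was tested. Of 16 genes driven by NRF2, the oxidative stress factor, 16 were measured and 0 were 2-fold higher or lower, with a median of -0.01 (0.14 with TMM); AKR1B10 was at -0.32, AKR1C2 at -0.31, the cystine importer SLC7A11 at -0.28 and TXNRD1 at 0.19. Of 11 heat and metal stress genes 9 were measured and 0 passed 2-fold, with a median of -0.07 (0.08 with TMM); the small heat shock protein HSPB1 had 303 CPM in Squashed and 171 CPM in Control cells (0.83, 0.78 to 0.88), and HSF1 was at -0.39, HSPH1 at -0.29 and HSPA8 at -0.23. Of 12 glucocorticoid genes 2 were measured, the phosphatase DUSP1 at -0.59 and the receptor NR3C1 at -0.14. Of 12 hypoxia genes 4 were measured and 2 were at least 2-fold lower, DDIT4 (-1.80) and BNIP3 (-1.09), while with TMM 1 was lower and 1 higher; ADM was at -0.94 and the collagen hydroxylase P4HA1 at 0.89. Of 10 neighbours of the cluster on chromosome 16, 4 were measured and 1 was at least 2-fold lower, the endoplasmic reticulum protein HERPUD1 (-1.79), while NUP93, OGFOD1 and NUDT21 lay between -0.15 and 0.16.

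The libraries differ in genes per cell, so the sum was also read within fixed ranges. In cells with 500 to under 1500 genes, 782 Squashed and 396 Control cells, the metallothioneins had 2724 and 1064 CPM (1.36, 1.29 to 1.42). With 1500 to under 3000 genes, 627 and 750 cells, they had 3805 and 1205 CPM (1.66, 1.62 to 1.69), and with 3000 or more, 521 and 760 cells, 2387 and 995 CPM (1.26, 1.23 to 1.29). The log2 ratio was thus between 1.26 and 1.66 in cells with like numbers of genes. SLC30A1 was at -0.28 (-0.64 to 0.07) in the last range, with 8.64 CPM in Squashed and 10.5 CPM in Control cells, and at or under 4 CPM in the others. There its log2 ratio was -0.005 in the first range (4 Squashed and 2 Control UMIs) and -0.001 in the second (27 and 32 UMIs). Over cells, the rho of the metallothionein level with total UMIs was -0.12 in Squashed and -0.07 in Control cells, and with the mitochondrial share -0.20 and 0.02.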

How the data were processed

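Single-cell libraries were made with the 10x Genomics Chromium 3.1 kit, per the labels' design text. The authors deposited raw UMI counts, by gene and barcode, which were used without change. Counting used Cell Ranger and GRCh38, version 4.0.0 per the file headers and 5.0.1 per the labels' design text; the sources used here do not give the rule that separated cells from empty droplets. R 4.3.2 is named in the submitters' processing notes, with no step.

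Barcodes were kept from 1000 UMIs and 500 genes upward, with no more than 20% of UMIs mitochondrial. Doublets called by Scrublet (15 Squashed, 14 Control) were kept. Summed UMIs were scaled by the library total to CPM. Log2 ratios used a prior of 0.5 count and exact conditional (Clopper-Pearson) intervals, levels exact Poisson intervals and shares Clopper-Pearson intervals, all at 95%. UMIs of a library are not independent of its cells, so these cover counting error only. Stages were called with scanpy 1.11.5 on cells of both libraries thinned to 2000 UMIs. TMM factors came from edgeR 4.0.16 in R 4.3.3. Python 3.11.15, numpy 2.4.6 and scipy 1.17.1 were used. Log2 ratios and their intervals were tested on simulated counts, and thinning and rank correlation were checked on Control cells. The other steps had no such test. Windows of 50 bases and positions came from GENCODE 44, the promoters from RefSeq.

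The members and lists were chosen with earlier results of these data known. Named genes are the members, MTF1, up to 4 measured genes (at least 20 CPM in either library) of each list by absolute ratio, and the 6 genes most like the metallothionein sum or SLC30A1; other zinc and copper genes and MT1B were named after their values had been seen. Alternatives were other scalings, cell filters, stage calls, depths and the removal of doublets, of the 1% highest cells or of shared barcodes.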

Additional observations from a re-analysis of the deposited data

Results flagged for a closer look

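The direction of the difference between G2/M and G1 cells was opposite in the libraries for 2 genes and the sum. Both counting intervals were clear of 0, but they leave out the spread between cells. The contrast was not tested, since each library stands alone. The log2 ratio of G2/M over G1 was 0.56 in Squashed and -0.13 in Control cells for MT2A, 1.09 and -0.45 for MT1X, and 0.60 and -0.16 for the summed metallothioneins. Without the 1% highest cells the MT1X ratio was 0.57 in Squashed and -0.35 in Control cells. With stages on all UMIs the Control ratio of the sum turned to 0.12. Barcodes outside the comparisons also held metallothionein RNA: the 1202 removed Squashed barcodes had 1090 CPM, above the 738 CPM of the 668 removed Control barcodes (log2 ratio 0.56, 0.49 to 0.64). Groups of 1 library allow no check for samples far from the others.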

How the results depend on the processing

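The log2 ratio of the metallothionein sum stayed above 0 in 11 of 11 alternatives: 1.58 with TMM scaling, 1.56 with median of ratios, 1.49 with a total without mitochondrial and ribosomal protein genes, 1.35 with no cell filter, 1.94 with the stricter cell filter, 1.30 without the 1% highest cells and 1.49 with thinned cells. In G1 cells, in the order TMM, median of ratios, reduced total, stricter filter, without the highest cells and thinned, it was 1.39, 1.30, 1.16, 1.5, 1.05 and 1.14, and in G2/M cells 1.82, 1.89, 1.91, 2.16, 1.64 and 1.94. With stages on all UMIs, without cells near a boundary and with gene-scaled scores it was 0.95, 1.06 and 1.01 in G1 and 1.76, 1.89 and 1.90 in G2/M; the mean of per-cell CPM gave 1.91 in G2/M. In S cells it was 1.12 with TMM, 1.07 with median of ratios, 1.33 with the stricter filter, 0.89 without doublets, 1.19 as a mean of per-cell CPM, 1.18 with thinned cells, 0.57 without cells near a boundary and 1.26 with gene-scaled scores. No value by stage was made without a cell filter, since stages need the kept cells.

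The G2/M over G1 ratio of the sum, with alternatives chosen after seeing the data, was in Squashed cells 0.47 without the highest cells, 0.24 with the stricter filter, 0.93 on all UMIs, 0.70 without cells near a boundary, 0.82 with gene-scaled scores, 0.63 as a mean and 0.66 as a median of per-cell CPM. In Control cells it was -0.11 without the highest cells, -0.42 with the stricter filter, -0.064 with gene-scaled scores and -0.10 as a median, and it turned to 0.12 with stages on all UMIs; the cause was not tested. SLC30A1 turned to 0.21 in all cells and 0.33 in G1 cells with the stricter filter; the cause was not tested.

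Cells with at least 5 MT2A UMIs made up 71.5% of Squashed and 39.6% of Control cells at 5000 UMIs, and 47.5% of Squashed cells with the stricter filter. The MT1X share of the 1% highest cells was then 44.1% in Squashed and 11.1% in Control cells. The rho of MT2A and MT1X was 0.36 in Squashed and 0.28 in Control cells at 5000 UMIs; within stages it was 0.21, 0.17 and 0.34 in Squashed cells of G1, S and G2/M and 0.23 and 0.12 in Control cells of G1 and S. Of other metal genes, 1 was 2-fold higher from 5 CPM on (MT1B) and 1 with TMM (ATOX1), where 0 were 2-fold lower. No paired analysis was possible because each group has 1 library. Depth limits MT1F and SLC30A1, which average well under 1 UMI per cell. MT1E had 0 UMIs, with upper bounds of 0.158 CPM in Squashed and 0.134 CPM in Control cells.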

Other observations

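Among Squashed G2/M cells the pooled metallothionein sum was higher where no NEAT1 UMI was seen. In the 539 Squashed G2/M cells with 0 NEAT1 UMIs at 2000 UMIs the sum was 3868 CPM, against 2520 CPM in the 127 with at least 1, and MT1X was 447 against 209 CPM. The UMIs were pooled, and 13 of the 20 highest Squashed cells were called G2/M, so a few cells can carry these values. No value without the highest cells was made. Over cells the medians lay closer, at 2364 and 2196 CPM. Depth differed too, with medians of 11301 and 19387 UMIs. In Control G2/M cells the sums were 959 CPM in 785 cells without and 1047 CPM in 129 cells with a NEAT1 UMI, with medians of 731 and 852 CPM.

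Removed barcodes with under 500 genes held 1702 CPM of metallothionein UMIs in the Squashed library (673 barcodes) and 604 CPM in the Control library (384 barcodes), and those with over 20% mitochondrial UMIs held 988 CPM (956 barcodes) and 708 CPM (506 barcodes).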
